A study of Mus musculus with 102 samples.

Results

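The clustered protocadherin locus on mouse chromosome 18 holds the alpha, beta and gamma protocadherin genes side by side. Its CpGs were taken by position from a capture bisulfite table of mouse embryonic stem cells (ESCs), with coordinates in the mm9 build. The rule uses position alone. The window held 4737 of the 2177608 CpGs of the table. Of these, 1584 lay in the alpha cluster (measured from position 37080040 to 37378217), 1137 in the beta cluster (37454156 to 37680354) and 2016 in the gamma cluster (37778201 to 38009636). The genome sequence of the window has 11206 CpGs, so 42.3% were measured.

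Clustered protocadherins are cell adhesion proteins of neurons. Each alpha and gamma gene consists of a large variable exon with its own promoter, whose transcript is spliced to constant exons shared by the cluster, whereas each beta gene is a single coding exon. Single neurons express a few of the alternate genes, chosen promoter by promoter, while the C type genes at the end of the alpha and gamma clusters are expressed more uniformly. DNA methylation of the promoters takes part in this choice: DNMT3B places it during early development, and it hinders binding of CTCF, which connects promoters to distant enhancers.

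All cells in these comparisons were C57BL6/J ESCs homozygous for loxP-flanked catalytic exons of Dnmt3a and Dnmt3b, the de novo DNA methyltransferases. WT cells were this parental line and were not transduced. TTKO cells came from a single clone of it with frameshifts in all alleles of Tet1, Tet2 and Tet3, whose enzymes oxidise 5-methylcytosine, and were sampled without transduction (day 0) or after transduction with Cre protein, which deletes the Dnmt3 exons, on days 4, 8 and 10 and again on days 13, 17 and 29. Each of the 8 columns of the table joined 3 replicates, so that no spread between replicates could be given. The tests below therefore compare pooled libraries and cover counting error only. The TTKO clone and the absence of TET cannot be told apart, nor can days in culture and the deletion, since no mock-transduced capture library was used here.

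Depth in the locus was above that of the table in each column. The median coverage of a locus CpG ranged from 230 reads at day 8 to 391 reads at day 17, where the table had 152 and 269 reads, and the minimum was 50 reads. The median was 456 reads in the beta cluster, 343 in the alpha cluster and 289 in the gamma cluster over all columns, against 231 over the whole table.

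To place the CpGs, open reading frames of the variable exons were located in the mm9 sequence. This gave 58 exons, of which 14 were alpha, 22 beta and 22 gamma exons, with frames of 2232 to 2652 bases. Beta exons carried their own symbols in the GENCODE annotation. The annotation joins most alpha and gamma transcripts under shared symbols, so these 36 exons were named by the distance from their start codon to the shared end of the cluster, compared with the RefSeq length of each gene. The largest mismatch was 1344 bases, for Pcdha6. Of the members, 3486 CpGs lay in variable exons, and 68.4% of the CpGs of these exons were measured. The share was 80.3% in alpha, 65.0% in beta and 62.0% in gamma exons. Pcdhb1 had no measured CpG.

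The exons are paralogs, which bears on unique alignment of short bisulfite reads. Outside the C type genes, the closest other exon belonged to the same subfamily for 53 of 53 exons. Identity to that exon ranged from 77.9% to 85.6% for Pcdha1 to Pcdha12, from 69.9% to 89.7% for beta, from 72.9% to 80.7% for gamma A and from 74.3% to 79.7% for gamma B. The C type exons were more distinct, at 65.0% to 73.4% over shorter alignments. The part of the beta exons from 500 to 1000 bases past the start codon contained no measured CpG.

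The first question was how far methylation of the 3 clusters differed with and without TET proteins. Mean methylation was 21.5% in WT and 28.5% in TTKO cells in the alpha cluster, 20.3% and 33.9% in the beta cluster, and 14.7% and 22.8% in the gamma cluster. Over all CpGs of the table the means were 23.4% and 35.8%. The mean difference was therefore largest in the beta cluster, at 13.6 percentage points, against 7 in alpha, 8.08 in gamma and 12.4 over the table. In bands of the WT level up to 70%, beta was above the table only under 10%, at 7.53 against 5.93 percentage points. From 10% to 30% it was 18.6 against 31.5, from 30% to 50% 16.5 against 25.8, and from 50% to 70% 13.7 against 14.7. Intermediate levels from 10% to 50% were common in the locus. They made up 37.3% of its CpGs in WT cells (53.4% in beta), against 22.9% of the table.

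By Fisher's exact test per CpG with Benjamini-Hochberg adjustment over the table, 2110 CpGs (44.5%) of the locus were higher in TTKO than in WT cells, beside 44.7% of the table. The clusters divided around that background. Higher CpGs numbered 742 (65.3%) in the beta cluster, 621 (39.2%) in the alpha cluster and 747 (37.1%) in the gamma cluster. At like WT levels, the beta share was below the table from 10% to 30% (75% against 80.8%) and from 30% to 50% (71.7% against 80.7%). It was above the table under 10% (50.5% against 24.3%) and from 50% to 70% (78.1% against 68.7%). The parts of depth and of the measured positions in these shares were not tested. With a difference of at least 10 percentage points also required, the share was 35.1% in the locus, beside 37.9% of the table. Lower CpGs numbered 282 (5.95%) in the locus, where the table had 0.907%. They were 148 (9.34%) in alpha, 58 (5.10%) in beta and 76 (3.77%) in gamma. With the minimum of 10 percentage points, lower CpGs were 56 (3.54%) in alpha, 23 (2.02%) in beta and 18 (0.893%) in gamma, beside 0.391% of the table. With an allowance for over-dispersion of the joined replicates they were 102 (6.44%), 35 (3.08%) and 37 (1.84%), beside 0.513% of the table. In each band of the WT level from 0 to 70%, the share of lower CpGs in each cluster exceeded that of the table. Among CpGs from 10% to 30% in WT, 13.0% were lower in alpha, 6.19% in beta and 6.44% in gamma, against 2.48% in the table.

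**Figure D1:**
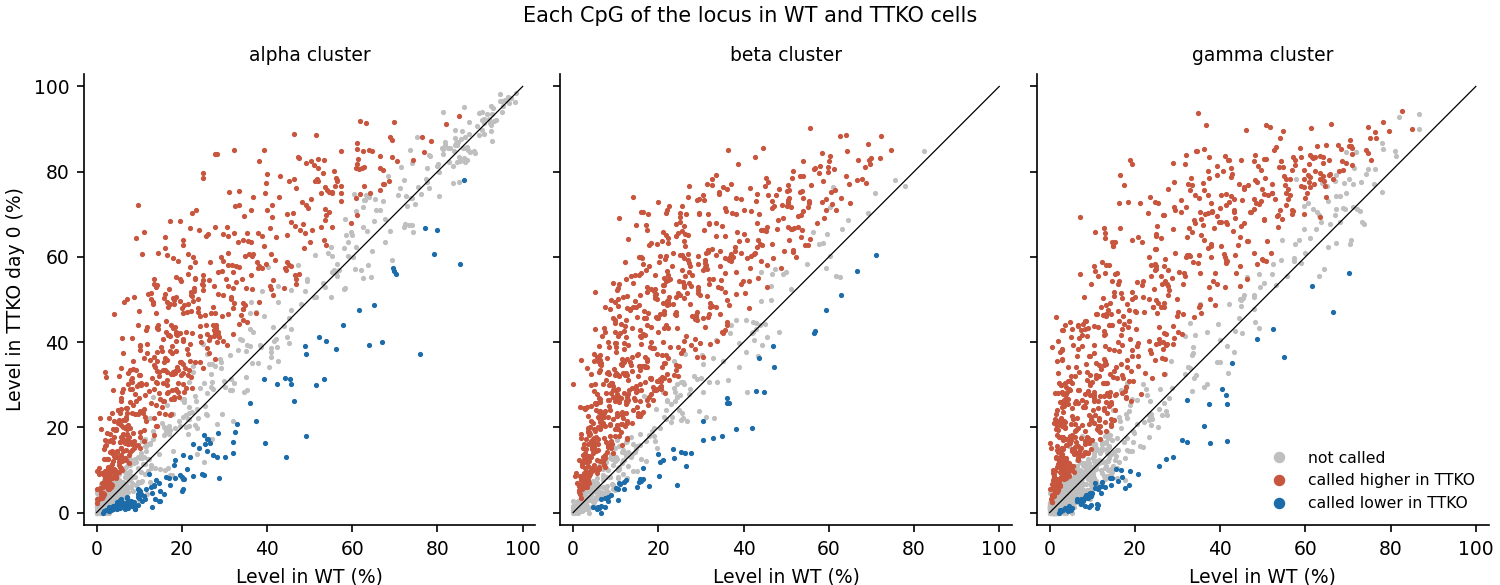
Methylation level of each CpG of the 3 clusters in WT (x axis, percent) and in TTKO cells at day 0 (y axis, percent), with the diagonal of equal levels. Points are coloured by the call of Fisher's exact test. Most called points lie above the diagonal, and 148 alpha, 58 beta and 76 gamma called CpGs lie below it.

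The variable exons followed a shared profile. The 250 bases before the start codon were least methylated, with 4.08% in WT and 3.47% in TTKO cells in alpha, 8.86% and 10.6% in beta, and 1.87% and 2.60% in gamma. From 1000 to 1500 bases into the exon, means reached 30.1% in WT and 41.1% in TTKO cells in alpha, 32.4% and 56.3% in beta, and 31.8% and 50.3% in gamma. The difference between the lines varied along this profile. It was 10.9 percentage points in alpha, 24.0 in beta and 18.5 in gamma from 1000 to 1500 bases. From 2000 to 2700 bases it was 17.0 in alpha (25.9% in WT and 42.9% in TTKO cells), 14.0 in beta and 13.5 in gamma. In the 250 bases before the start codon it was -0.607, 1.71 and 0.724 percentage points. Further upstream of the gamma exons, from 1000 to 500 bases before the start codon, means were 15.6% in WT and 23.1% in TTKO cells, a difference above that of the first 250 bases of these exons (3.57% and 7.10%).

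CpGs lower in TTKO cells lay both upstream of the exons and within them. Beside the counts below, 0.907% of the CpGs of the table were lower and 44.7% higher. In the alpha cluster, 4 of 10 CpGs were lower and 2 higher from 1000 to 500 bases before the start codon, and 9 of 48 were lower and 7 higher from 500 to 250 bases before it. In the 250 bases just before it, 11 of 122 were lower and 9 higher. From 250 to 500 bases into the alpha exons, 42 of 222 CpGs were lower and 46 higher, whereas from 1000 to 1500 bases 25 of 322 were lower and 185 higher, and from 1500 to 2000 bases 17 of 347 were lower and 195 higher. Upstream of the beta genes, from 500 to 250 bases before the start codon, 14 of 57 CpGs were lower and 3 higher. In the 250 bases just before it, 18 of 122 were lower and 23 higher. At 1500 to 2000 bases into beta exons, 11 of 584 were lower and 441 higher. In gamma exons, 2 of 261 CpGs were lower and 57 higher in the first 250 bases, the lower ones near the share of the table. In the next 250 bases 4 of 153 were lower and 57 higher. From 1500 to 2000 bases 10 of 395 were lower and 144 higher, and from 2000 to 2700 bases 11 of 170 were lower and 89 higher. Upstream of the gamma exons, 15 of 62 were lower and 27 higher from 1000 to 500 bases before the start codon. From 500 to 250 bases before it 7 of 91 were lower and 12 higher, and in the last 250 bases 6 of 221 were lower and 13 higher. Differences in position between the clusters were not tested.

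**Figure D2:**
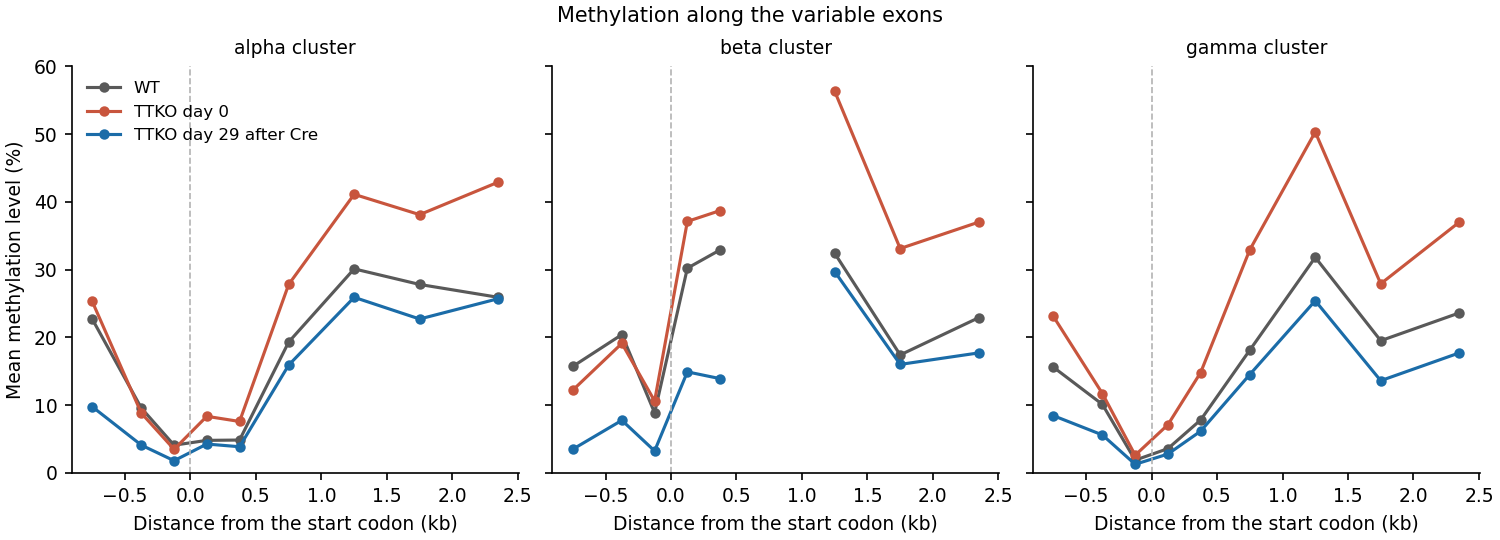
Mean methylation level (y axis, percent) by distance from the start codon of the variable exons (x axis, kb) in WT, TTKO day 0 and TTKO day 29 after Cre. All 3 clusters have a trough just before the start codon (1.87% to 8.86% in WT) and a rise within the exon. The gap in the beta panel holds no measured CpG.

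Over the 3486 CpGs of variable exons, the mean was 19.2% in WT and 30.2% in TTKO cells at day 0, and 1844 of them were higher and 171 lower by the adjusted test, beside 44.7% and 0.907% of the table. Coding exons of at least 2000 bases elsewhere in the table, with 12725 CpGs, averaged 22.8% and 38.2%. By exon, 56 of 57 means were higher in TTKO than in WT cells, and the median exon was 20.3% in WT and 33.2% in TTKO cells. The mean over exons in WT and TTKO cells was 22.6% and 42.4% for the C type, 22.3% and 38.7% for beta, 17.0% and 27.8% for gamma B, 21.3% and 28.9% for Pcdha1 to Pcdha12, and 15.5% and 21.6% for gamma A. Exon means also depend on which part of an exon was measured. In WT cells beta exons ranged from 6.54% (Pcdhb17) to 51.7% (Pcdhb6), which were 6.68% and 52.6% from 1000 to 2000 bases, where both were measured. Gamma A exons ranged from 1.95% (Pcdhga6) to 51.3% (Pcdhga4, over 12 CpGs), but all 22 CpGs of Pcdhga6 lay in the first 1000 bases, where Pcdhga4 was 1.89% over 3 CpGs. The other 9 CpGs of Pcdhga4, from 1000 to 2000 bases, were 67.7%.

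Pcdha6 was the exception. Its exon averaged 49.3% in WT and 46.0% in TTKO cells at day 0, with 34 of 90 CpGs lower and 11 higher, beside 0.907% lower and 44.7% higher over the table and 171 lower and 1844 higher of the 3486 CpGs of all variable exons. It was the sole exon with more lower than higher CpGs. In the first 1000 bases the mean was 15.2% in WT and 11.8% in TTKO cells, with 21 CpGs lower and 5 higher. From 1000 to 2000 bases it was 70.9% and 67.7%, with 13 lower and 6 higher. A copy of this exon with 90.9% identity lies between Pcdha7 and Pcdha8 and was measured separately at 71.3% in WT and 85.4% in TTKO cells. Whether reads of the copy and the exon mix was not tested. The single CpG with the largest fall in the alpha cluster also lay in Pcdha6, at position 37128642 of chromosome 18. It was 85.3% in WT (95% Wilson interval 81.3% to 88.6%, 368 reads) and 58.4% in TTKO cells (53.2% to 63.4%, 353 reads). Pcdha1 and Pcdha8 were split along their length. In the first 1000 bases 19 CpGs of Pcdha1 were lower and 8 higher, against 3 lower and 32 higher in the next 1000 bases. In Pcdha8 the same counts were 12 and 3, then 3 and 30.

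In the exons of the 5 C type genes, 206 of 317 CpGs were higher and 0 lower by Fisher's exact test with adjustment (0 lower at an unadjusted p under 0.05), beside 44.7% higher and 0.907% lower over the table. In the other variable exons, 171 of 3169 CpGs (5.40%) were lower. The difference between these exon groups was not tested. Pcdhac1 averaged 13.4% in WT and 42.4% in TTKO cells, with 25 of its 27 measured CpGs higher. Pcdhac2 averaged 13.4% and 26.5%, with 29 of 67 higher. Pcdhgc3 had the lowest levels, at 6.15% and 17.4%, with 43 of 102 higher. Pcdhgc4 averaged 32.8% and 53.0%, and Pcdhgc5 47.1% and 72.8%, with 63 of 72 and 46 of 49 CpGs higher. Pcdhgc5 had the highest exon mean of the locus in TTKO cells.

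The CpGs with the largest rise in each cluster lay in 2 of these genes and in a beta gene. In Pcdhac1, the CpG at 37250257 was 9.73% in WT (6.24% to 14.9%, 185 reads) and 72.1% in TTKO cells (65.6% to 77.9%, 201 reads). In Pcdhgc5, the CpG at 37980955 was 18.9% (15.1% to 23.5%, 333 reads) and 82.7% (78.4% to 86.3%, 352 reads). In Pcdhb3, the CpG at 37462514 was 13.9% (11.3% to 17.0%, 574 reads) and 74.1% (70.1% to 77.7%, 513 reads). Their differences of 62.4, 63.8 and 60.1 percentage points exceeded the counting intervals. The largest falls outside alpha lay upstream of genes, from 42.0% to 19.9% at 37493347 before Pcdhb6 and from 41.6% to 16.9% at 37896138 before Pcdhga9.

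Levels at gene starts, averaged from 500 bases before to 500 after the start, were lower than the exon mean for 48 of 54 genes in WT and 52 of 54 in TTKO cells, among genes with at least 5 CpGs at the start. The rankings of starts that follow cover the genes with that minimum. For Pcdha1 to Pcdha12, the mean was 5.26% in WT and 5.72% in TTKO cells, for gamma A 3.70% and 6.09%, and for gamma B 5.89% and 8.21%. Beta starts were higher in both lines, at 15.8% and 17.7% over the 18 genes with at least 5 CpGs. C type starts averaged 8.11% and 20.2%. In windows of 1000 bases to each side, several of these means were over 1.5 times as high, at 8.21% and 9.09% for Pcdha1 to Pcdha12, 5.65% and 9.49% for gamma A, and 12.6% in WT for the C type. The C type mean in TTKO cells rose less, to 25.6%. Of 54 starts with at least 5 CpGs, 43 were higher in TTKO and 11 were lower.

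Among C type starts, Pcdhgc5 was 26.4% in WT and 56.0% in TTKO cells, the highest start of the gamma cluster in WT and the largest difference of the locus, at 29.5 percentage points over 17 CpGs. Pcdhac1 (8.07% and 25.4%, 50 CpGs) and Pcdhgc4 (3.46% and 15.2%, 42 CpGs) came next. Pcdhac2 (1.38% and 2.85%) and Pcdhgc3 (1.23% and 1.52%) were the lowest starts of their clusters in WT. These levels depended on the window: in start windows of 1000 bases to each side, Pcdhac2 was 3.18% and 11.8%, Pcdhgc3 was 2.60% and 5.67%, and Pcdhgc5 was 43.2% and 66.4%. Among these 5 starts, TTKO levels therefore spanned 1.52% to 56.0%.

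Elsewhere in the alpha cluster, Pcdha2 had the next largest difference (6.50% and 13.5%). Pcdha8, the highest alpha start in WT at 16.5%, was 10.4% in TTKO cells, and Pcdha1 was 5.46% in WT and 2.83% in TTKO cells. In the beta cluster, Pcdhb13 (15.6% and 26.1%) and Pcdhb19 (13.6% and 19.3%) had the largest differences among starts with at least 5 CpGs. Pcdhb4, the highest beta start in WT, was 34.6% in WT and 31.1% in TTKO cells, and Pcdhb6 was 25.5% and 23.1%. The lowest, Pcdhb3, was 1.10% and 3.07%. In the gamma cluster, the lowest differences TTKO minus WT, which were slightly below 0, were those of Pcdhga11 (4.04% and 3.91%) and Pcdhga12 (2.98% and 2.86%). Pcdhga12 turned in direction in the wider window, at 5.48% and 7.93%. These window means have no test of their own.

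**Figure D3:**
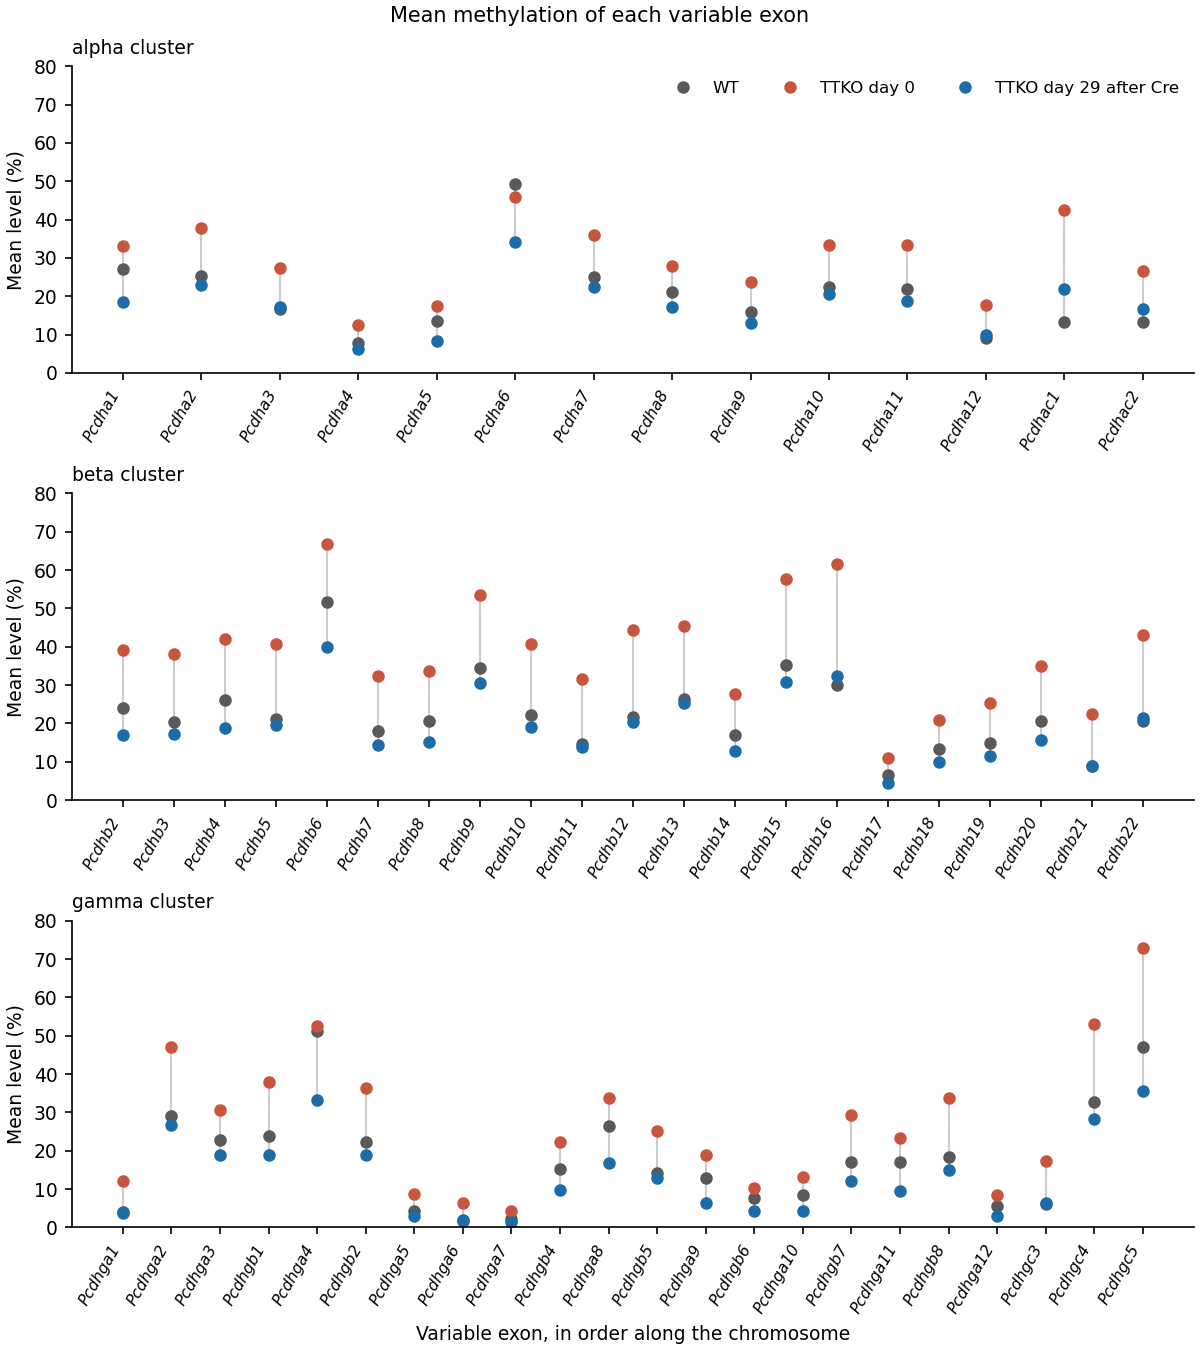
Mean methylation level (y axis, percent) over the measured CpGs of each variable exon, in order along the chromosome (x axis), in WT, TTKO day 0 and TTKO day 29 after Cre. The grey line spans the 3 values of an exon. TTKO day 0 is the highest value for every exon but Pcdha6, where WT is highest (49.3%).

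The second question was how the clusters lost methylation once Dnmt3a and Dnmt3b were deleted in TTKO cells. In order of the 7 time points, alpha means ran 28.5%, 25.8%, 24.1%, 22.8%, 21.7%, 19.8% and 18.5%. Beta means ran 33.9%, 31.1%, 27.4%, 25.4%, 23.3%, 19.9% and 16.2%. Gamma means ran 22.8%, 21.4%, 18.7%, 17.3%, 15.9%, 13.3% and 10.6%. In each cluster every mean was below the one before it, and the beta mean passed below the alpha mean between days 17 and 29. At day 29 the alpha cluster kept 64.9% of its day 0 mean, beta 47.7% and gamma 46.6%, against 54.6% over the table.

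**Figure D4:**
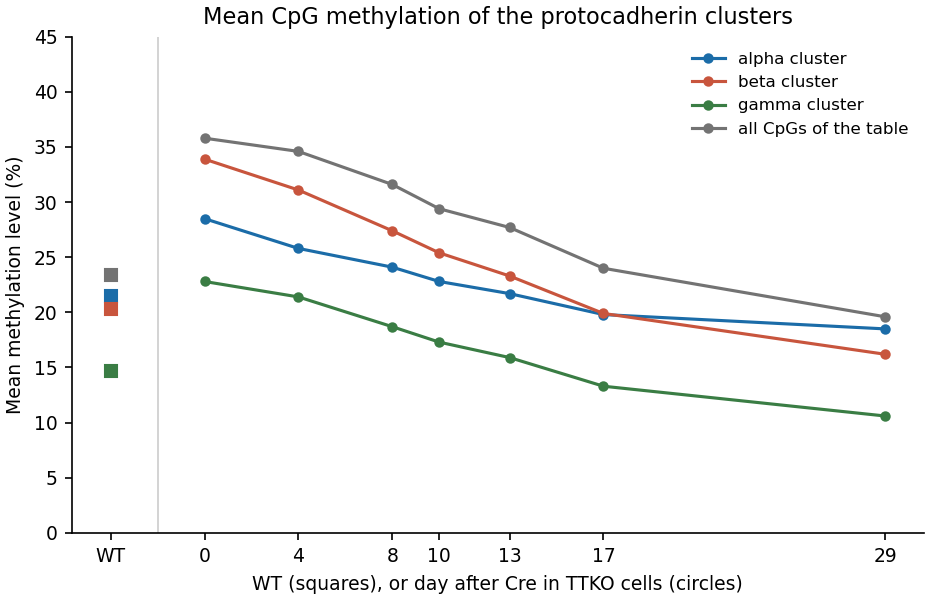
Mean methylation level (y axis, percent) of the 3 clusters and of all CpGs of the table in WT (squares) and in TTKO cells by day after Cre (circles). All 4 lines run downward, from 22.8% to 35.8% at day 0 to 10.6% to 19.6% at day 29, and the alpha line flattens above the beta line.

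From day 0 to day 29, 3125 CpGs (66.0%) of the locus were lower by Fisher's exact test, beside 59.3% of the table. The beta cluster had 998 lower CpGs (87.8%), alpha 942 (59.5%) and gamma 1185 (58.8%). The order of locus and table turned around under the minimum of 10 percentage points, at 48.1% of the locus, beside 51.9% of the table. The shares were then 69.7% in beta, 41.0% in alpha and 41.5% in gamma. Higher CpGs were rare, with 0 in alpha, 0 in beta and 3 in gamma (1, 0 and 6 at an unadjusted p under 0.05), where the table had 0.171%. None of the 3 gamma calls was made with the minimum of 10 percentage points, beside 0.00129% of the table, or with over-dispersion allowed for, beside 0.0420% of the table.

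Shares kept were also taken by exon group. The median exon kept 58.5% of its day 0 level for Pcdha1 to Pcdha12, 51.4% for the C type, 46.0% for beta, 44.5% for gamma B and 34.6% for gamma A. Pcdha6 kept the most of any exon, with 46.0% at day 0, 35.1% at day 17 and 34.1% at day 29, a share of 74.1%. Pcdhga6 kept the least, at 25.2% of a day 0 level of only 6.38% in its measured first 1000 bases. Beside the counts that follow, 59.3% of the CpGs of the table, at all day 0 levels, were lower at day 29 than at day 0. Among well methylated exons, Pcdhgc5 was 72.8%, 69.7%, 64.8%, 60.1%, 55.3%, 47.0% and 35.7% over the time points, with 49 of 49 CpGs lower at day 29 than at day 0. Pcdhb6 was 66.9%, 65.4%, 59.9%, 57.4%, 54.0%, 47.8% and 39.9%, with 36 of 37 lower. Pcdhac1 was 42.4% at day 0, 31.8% at day 4 and 21.8% at day 29, with 25 of 27 lower.

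Among gene starts, the beta group had the lowest median share kept. The median beta start kept 32.8%, against 49.8% for Pcdha1 to Pcdha12, 42.5% for gamma A, 49.1% for gamma B and 50.7% for the C type, although levels under 10% at day 0 make this share coarse for many windows. Among starts of at least 10% at day 0 and at least 5 CpGs, Pcdhb11 (18.7% to 5.25%) and Pcdhb10 (19.8% to 5.55%) kept the least in beta, both 28.0%. Pcdhb16 kept the most (18.3% to 9.08%). In gamma the least and the most were kept by Pcdhgb2 (12.0% to 3.75%) and Pcdhga2 (11.6% to 5.48%, at day 0 34.4% in the wider window). In alpha they were kept by Pcdha2 (13.5% to 5.98%) and Pcdhac1 (25.4% to 13.1%).

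Single CpGs that started at 50% or more ranged from no detected loss to a loss of 89.7% of the level. In beta, the CpG at 37467580 in Pcdhb4 declined from 70.2% (62.7% to 76.7%, 161 reads) to 14.7% (9.81% to 21.4%, 143 reads), whereas that at 37603808 in Pcdhb13 was 82.5% (79.2% to 85.4%) at day 0 and 81.0% (77.5% to 84.1%) at day 29. In gamma, a CpG between genes at 37944236 declined from 51.0% to 5.23%, and another at 37812594 was 91.0% at day 0 and 84.3% at day 29, with overlapping intervals of 86.3% to 94.1% and 78.4% to 88.9%. In alpha, the CpG at 37376553 declined from 50.9% to 14.6%, and that at 37140834 was 88.9% and 92.4%.

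The alpha cluster also holds methylated sequence outside the variable exons. Within variable exons alone, alpha means were 20.0% in WT, 28.3% in TTKO cells at day 0 and 16.9% at day 29. A stretch of 56 CpGs from 37139723 to 37141222, between Pcdha7 and Pcdha8, averaged 71.3% in WT, 85.4% in TTKO cells and 78.1% at day 29. It aligned to the Pcdha6 exon with 90.9% identity over 1441 bases but held no open reading frame of the length searched. A second stretch of 28 CpGs, from 37148218 to 37148953, was 87.1%, 87.3% and 84.0%, and aligned to Pcdha11 with 78.7% identity over 658 bases. These copies kept 91.4% and 96.2% of their day 0 means. Whether their reads mix with those of the exons was not tested.

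The remaining sequence of the window included constant exons and other genes. The alpha constant exons were 63.4% in WT, 80.5% in TTKO cells and 63.7% at day 29, over 8 CpGs. The gamma constant exons were 2.63%, 12.3% and 3.45% over 26 CpGs. A stretch of 59 CpGs from 37376230 to 37378218, between the alpha and beta genes and without an annotated gene, was 7.86%, 7.87% and 2.77%. Taf7, which encodes a subunit of the general transcription factor TFIID and lies between the beta and gamma genes, was 3.99%, 6.12% and 3.64% over 83 CpGs with 1000 bases to each side, as for the genes that follow. Its neighbour 3222401L13Rik was 4.98%, 5.40% and 1.48% over 35 CpGs. The end of Diap1, which encodes a formin, was 41.4%, 63.2% and 26.3% over 15 CpGs. Gm6756 was 61.8%, 62.3% and 42.9% over 5 CpGs. Gm10545 and Gm16882 overlap protocadherin exons and share their CpGs, with 12.9%, 20.8% and 11.6% for Gm10545, and 13.0%, 19.4% and 7.71% for Gm16882. SNORA40, a small nucleolar RNA gene between Pcdhga5 and Pcdhga6 whose window reaches no variable exon, was 18.4%, 13.8% and 3.80% over 7 CpGs. Slc25a2 and Gm10544 had no measured CpG.

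The third comparison set TTKO cells at day 29, without TET and with most Dnmt3 alleles deleted, against WT cells with both. It shares a column with each of the other comparisons. Of the locus CpGs, 487 (10.3%) were higher and 1577 (33.3%) lower at day 29 than in WT, beside 10.2% and 27.0% of the table. With a difference of at least 10 percentage points also required, the locus was below the table in both directions, with 6.33% higher and 18.7% lower, beside 8.05% and 21.9% of the table. By cluster the shares were 6.69% higher and 17.5% lower in alpha, 4.37% and 16.9% in gamma, and 9.32% and 23.5% in beta, which alone was above the table in both. Depth was higher in the locus, and its part in the shares without this minimum was not tested. Without the minimum, the higher CpGs were 174 (11.0%) in alpha, 177 (15.6%) in beta and 136 (6.75%) in gamma, and the lower CpGs 479 (30.2%), 459 (40.4%) and 639 (31.7%). The mean difference, day 29 minus WT, was -2.99 percentage points in alpha, -4.09 in beta and -4.08 in gamma, against -3.84 over the table. By exon, 49 of 57 were below their WT level and 8 above it. Pcdhac1 stood furthest above, at 21.8% against 13.4% in WT, with 14 CpGs higher and 0 lower by Fisher's exact test with adjustment (14 and 0 at an unadjusted p under 0.05). Pcdha6 had 71 of 90 CpGs lower and 0 higher (76 and 0 unadjusted).

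The rate model of the study describes each CpG of the TTKO time course by a rate of methylation, k_me, which ceases as DNMT3 is lost, and a rate of demethylation, k_de, both per day. It was fitted here to the deposited reads. Both rates could be estimated with low noise for 2137 CpGs of the locus (45.1%), against 44.8% of the table, with 537 in alpha, 834 in beta and 766 in gamma. The median log2 k_de was -5.05 in alpha (0.0302 per day), -4.50 in beta (0.0442 per day) and -4.50 in gamma, against -4.78 over the table (0.0365 per day). The median log2 k_me was -5.46, -5.19 and -4.64, against -3.81 over the table. The k_me medians depended on these settings. With a beta-binomial likelihood, which left 670 low noise CpGs and was fitted to the locus alone, they were -4.64, -4.36 and -3.81. With only the filter changed, to credible ranges under 1 (675 CpGs), they were -4.91, -4.50 and -4.23. Few CpGs at either end of the scale had low noise (78 of 1984 under 10% at day 0 and 9 of 48 from 90%), so rates were also compared at like day 0 levels.

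At like day 0 levels both rates were lower in the locus than over the table in the middle bands. From 30% to 50%, the median log2 k_de was -4.91 in alpha, -4.50 in beta and -4.36 in gamma, against -3.81 over the table, and the median log2 k_me was -5.60, -5.19 and -4.91, against -4.36. In this band the clusters kept 53.2%, 39.6% and 35.6% of the day 0 mean at day 29, against 26.2% over the table. From 10% to 30% the shares kept were 45.4%, 30.4% and 29.0%, against 20.8%. From 70% to 90%, they were 80.1%, 64.7% and 59.2%, on both sides of the 64.5% of the table. Alpha had the lowest and gamma the highest medians of the clusters in each of these bands. CpGs of a cluster are not independent, and these medians have no test.

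**Figure D5:**
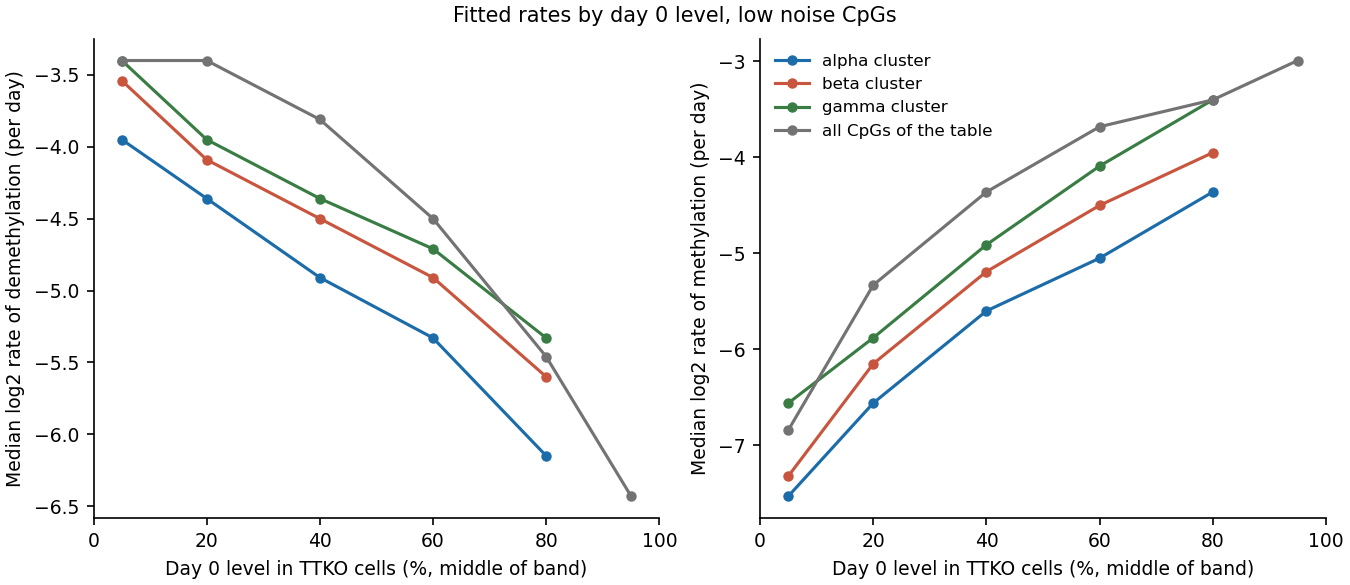
Median log2 rate per day of demethylation (left) and methylation (right) of low noise CpGs (y axis) by band of the day 0 level in TTKO cells (x axis, percent, middle of the band), for bands with at least 20 such CpGs. The alpha line is the lowest throughout, and from 30% to 50% the clusters lie at -4.91 to -4.36 for demethylation, under the -3.81 of the table.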

How the data were processed

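Genomic DNA was captured with SureSelect probes, bisulfite converted and sequenced, and per the labels and methods mapping to mm9 used Rbowtie within the QuasR package, with qMeth for methylation calls. The authors deposited, per CpG and pooled column, the count of covering reads and the percent of them that were methylated, without normalization, for CpGs covered at least 50 times. The 4 columns of the authors' inferred rates, confidence classes and TET activity were not used, nor were the amplicon tables, which held no CpG of the locus. Groups were taken from the sample labels. The window and gene lists were chosen with earlier results of these data known.

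Methylated reads were recovered from percent and coverage, and 100% of values under 1000 reads came out whole within rounding. Levels were compared with two-sided Fisher's exact tests over all CpGs, adjusted by Benjamini-Hochberg and called under 0.05, in Python 3.11.15 with numba 0.67.0. Rates were fitted on a grid of 6400 combinations (conversion error 0.0025, 8% of the starting level mixed in for undeleted Dnmt3 alleles and DNMT3 lost at 0.5 per day). A CpG had low noise where both 95% credible ranges were under 2 on the log2 scale and the probability at the border of the grid was under 0.08. Both steps were tested on simulated data. Variable exons were open reading frames of at least 1800 bases, named by GENCODE M1 (beta) or by RefSeq gene length (GRCm38.p6) within 2000 bases, and aligned with BLAST 2.17.0. Start windows were centred on the annotated start, or on the start codon where none was annotated. Named genes were all C type genes and, per cluster, those with the highest and lowest WT start level, the 2 highest and 2 lowest signed differences TTKO minus WT and the highest and lowest share kept. Named CpGs, all with 100 reads or more in each column, had the largest rise, fall, loss or smallest loss. Pcdha6, Pcdhb17, Pcdhga4, Pcdhga6 and the stretches were named after their values were seen. Intervals are 95% Wilson intervals and cover counting error only. Alternatives were coverage of at least 100 reads, a 10 percentage point minimum, over-dispersion of 0.0055, read weighting, a stricter rate filter and start windows of 1000 bases.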

Additional observations from a re-analysis of the deposited data

How the results depend on the processing

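No paired analysis was possible because each column joined its 3 replicates, and for the same reason none was left out in turn. Of 99 alternative values, 50 stayed near the reported value and 49 moved. A reversal could be recorded only for the mean differences, of which 0 reversed in sign. For counts, near was a wide range: 468 alpha CpGs higher in TTKO with the 10 percentage point minimum, against 621 without it, was held as near. Causes were not tested. Low coverage limits single CpGs, and levels near 0 limit the rates.

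With a difference of at least 10 percentage points, CpGs lower in TTKO than in WT were 56, 23 and 18 in alpha, beta and gamma. At day 29 against WT they were 106, 106 and 88 higher and 277, 267 and 340 lower, and gamma CpGs higher than at day 0 were 0. With over-dispersion, lower CpGs in TTKO were 35 in beta and 37 in gamma, and gamma CpGs higher at day 29 than at day 0 were 0. The mean difference TTKO minus WT was 7.30 (alpha) and 13.8 (beta) percentage points at 100 reads or more, and 6.03, 14.6 and 8.86 in alpha, beta and gamma weighted by reads. The difference day 29 minus day 0 was -9.81 (alpha) and -11.8 (gamma) at 100 reads or more, and -9.35 and -12.8 weighted by reads. In variable exons alone, an alternative chosen after seeing the data, the first difference was 8.21, 16.2 and 9.85 and the second -11.3, -19.4 and -14.0. The median log2 k_me of alpha, beta and gamma was -4.64, -4.36 and -3.81 with a beta-binomial likelihood (670 low noise CpGs) and -4.91, -4.50 and -4.23 with credible ranges under 1 (675 CpGs), while k_de medians stayed within 1 grid step of 0.138. The order of the clusters in k_me was kept in each. In start windows of 1000 bases, WT, TTKO day 0 and day 29 means were 12.6%, 25.6% and 12.0% for the C type, 8.21%, 9.09% and 4.96% for Pcdha1 to Pcdha12, 16.2%, 18.4% and 6.65% for beta, 5.65%, 9.49% and 4.12% for gamma A, and 7.69%, 10.3% and 4.46% for gamma B.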
